A study of Mus musculus with 2 samples.

Results

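The 42 genes described here encode parts of the motile cilium and its axoneme, together with regulators of the cells that build it. They were listed by name and known function, from 43346 mouse genes in the tables, by a rule that uses no measured value but was written with earlier results of these data known. By role they are 3 outer dynein arm heavy chains, 9 inner dynein arm chains, 3 radial spoke head proteins, 3 tektins, 5 central pair proteins, 3 genes of the nexin-dynein regulatory complex and the molecular ruler, 11 other ciliary proteins and 5 regulators. Total RNA was sequenced from the lungs of 2 newborn mice, pup 1 and pup 3, of strain B6NCrl at postnatal day 0. Each library came from both lungs of 1 pup of pregnancy 1, from 10 ng of RNA over 200 nt with added spike-ins, and the labels record neither a treatment nor an allele. Sex was not recorded. The pups form 1 group, so no conditions can be compared, and the only contrast is 1 library against the other.

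The axoneme is the microtubule core of a motile cilium, with doublets around a central pair. Dynein arms on the doublets slide them against each other, and radial spokes, the central pair and the nexin links turn that sliding into bending. In the lung these cilia stand on multiciliated airway cells, which move mucus, and multicilin, GEMC1, FOXJ1 and RFX factors drive the differentiation of such cells.

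RFX factors bind the X-box, which has a pair of inverted arms. The letters GTTGCC of 1 arm were searched on both strands of the RefSeq promoters (GRCm38.p6, 250 bases before to 50 bases after the annotated start), which held 37 of the 42 genes. They were present in 19 of these 37 (51.4%), against 14.1% of 27025 genes of all kinds and 14.3% of 17492 protein-coding genes. The genes of intraflagellar transport and the primary cilium, which are needed by nearly all cilia, had them in 17 of 36 promoters (47.2%), and other genes of the same axonemal complexes in 23 of 52 (44.2%). Both arms together, in the exact form GTTNCC followed within 0 to 3 bases by GGNAAC, were in 0 of the 37 promoters. This search was added after the data were seen. The form was in 0.936% of all genes, in 11.1% of the primary cilium list and in 3.85% of the other genes of the complexes. It leaves out arms with other letters, such as the AGCAAC just after GTTGCC in the Dynlrb2 site below. The 0 therefore does not show that these promoters lack paired arms. Of the 19 genes with GTTGCC, 16 had a match before the start. The sites below are shown because they cover the most abundant dynein light chain of the set, the cilium tip, Ccdc153, a tektin, the central pair and 3 regulators. Capitals mark GTTGCC or its reverse complement GGCAAC, and each sequence runs 5′ to 3′ along the strand of the gene.

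Dynlrb2 (chr8:116504952-116504981, plus strand): acttcctgcctgGTTGCCtagcaacggggg
Sntn (chr14:13670798-13670827, plus strand): tgtcattattcaGTTGCCatggaatgaatg
Ccdc153 (chr9:44240513-44240542, plus strand): ctgagttttccaGTTGCCtggacaacgtgc
Tekt2 (chr4:126325767-126325796, minus strand): cgcagctgcgcgGTTGCCtggctaagctga
Hydin (chr8:110266952-110266976, plus strand): tgcggttgctgtGGCAACagatggt
Ccno (chr13:112987571-112987600, plus strand): acccgggctgcgGTTGCCacggtgacgaca
Mcidas (chr13:112993661-112993690, plus strand): gggggaagccagGTTGCCaggttggttaac
Rfx2 (chr17:56831107-56831136, minus strand): agcttggtaaccGTTGCCgggcgcaacgcc

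Counted with the base before the start as -1, the motif begins at -51 in Dynlrb2, -66 in Sntn and -13 in Hydin. The extended arm GTTGCCATG was found in 1 of the 37 promoters, that of Sntn, against 0.877% of all genes. The forkhead motif GTAAACA, the class of site that FOXJ1 binds, stood in the promoters of Ak7, Cfap43 and Sntn (8.11% of the 37, against 4.05% of all genes). The median GC content of the 37 promoters was 54.7%, against 52.7% for all genes and 56.3% for protein-coding genes. A match describes these letters in these windows and was not tied to binding.

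As a set, 32 of the 42 genes reached TPM 1 in both pups (the deposited level, scaled by transcript length and library), and 60.3% of 21474 protein-coding genes did so. Their TPM summed to 1059 in pup 1 and 1098 in pup 3, a mean of 1079 ± 27.7 (SD, n = 2). This was 0.106% of all TPM in pup 1 and 0.110% in pup 3. The median gene stood at 4.42 TPM in pup 1 and 5.71 TPM in pup 3. Levels ran over more than 3 orders of magnitude, with 2 genes over 100 TPM, 11 between 10 and 100, 21 between 1 and 10 and 8 under 1. The 11 include Cfap43, whose deposited row is mostly a transcript of another gene, as described below. Without that transcript its mean was 5.485 TPM. The pups ranked the genes alike (Pearson's r = 0.994 on log2(TPM + 1) and Spearman's rho = 0.990, across 42 genes that share the same libraries). Among neighbours in that order, only 11 of 41 pairs were separated in both pups, and none between Cfap52 and Rsph4a, where the order lies within the spread of the pups. All SDs rest on 2 pups to which the labels give the same donor identifier, and may be technical.

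**Figure D1:**
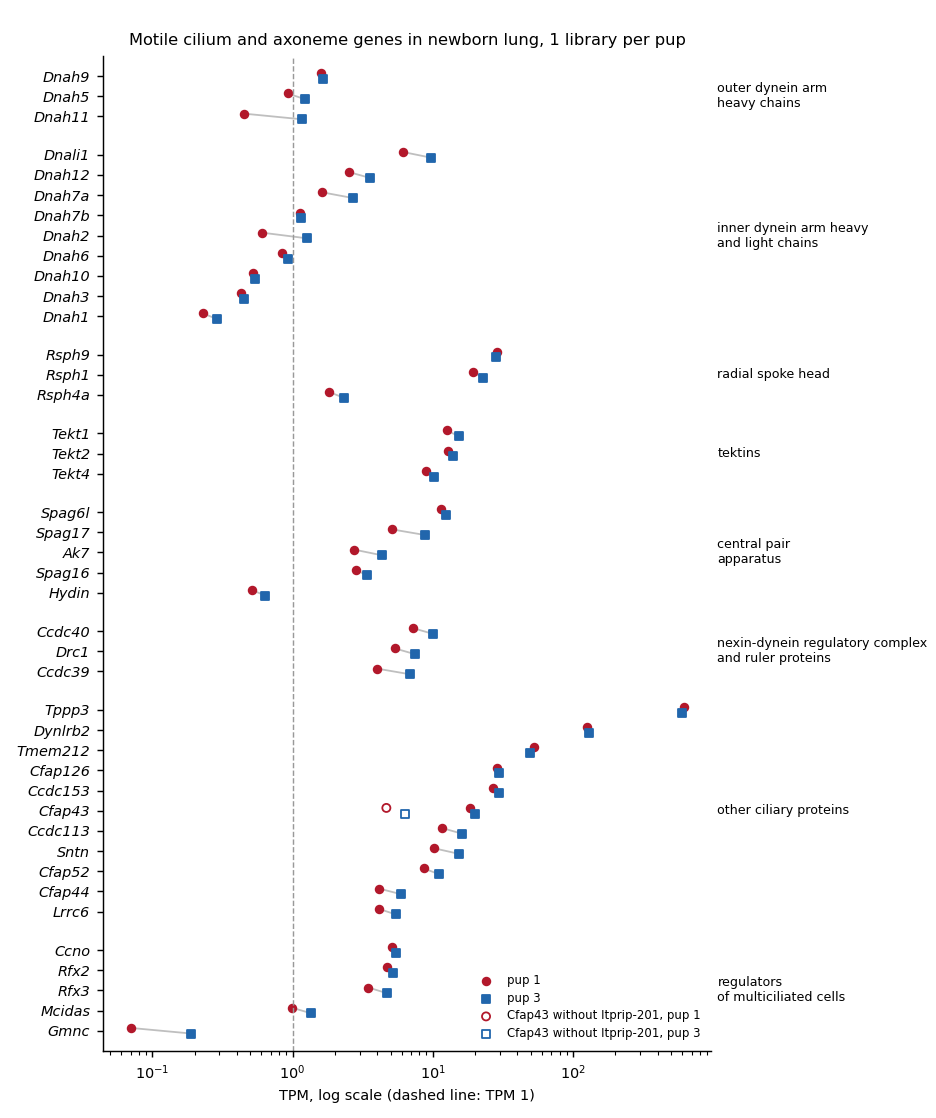
TPM (log axis) of the 42 genes in pup 1 (red circles) and pup 3 (blue squares), grouped by role, 1 library per pup, with a dashed line at TPM 1. Open symbols give Cfap43 without the Itprip-201 transcript that its row includes. Most dynein heavy chains lie near or below TPM 1, as does Hydin.

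All 10 genes used as markers of ciliated cells reached TPM 1 in both pups, as did 60.3% of protein-coding genes. The markers summed to 933 TPM in pup 1 and 940 TPM in pup 3. All of them but Foxj1 are also in the set, so they are no independent check of its label. Genes of the sperm flagellum and spermatid, which also have a motile axoneme, were nearly absent. Of 12 such genes, 7 had 0 counts in both pups and only Odf2, which is also found at centrioles, passed TPM 1 (19.0 TPM in pup 1 and 22.6 TPM in pup 3). In whole lung, fewer ciliated cells and less RNA per ciliated cell cannot be told apart.

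A single gene held over 50% of the deposited TPM of the set. Tppp3, which encodes a protein that promotes tubulin polymerization (chromosome 8, 105467493 to 105471526), had 614 TPM in pup 1 and 599 TPM in pup 3, on 17335 counts in pup 1 and 14385 in pup 3. This was 58.0% of the TPM of the set in pup 1 and 54.6% in pup 3. Of the set's counts it held 47.7% in pup 1 and 42.5% in pup 3, and of the TPM on the longest coding transcripts 50.2% in pup 1 and 47.0% in pup 3. Tppp3 is also known outside ciliated cells, and its share from them was not tested. Dynlrb2, a roadblock-type dynein light chain (chromosome 8, 116504974 to 116515915), came next with 125.1 TPM in pup 1 and 129 TPM in pup 3. Its paralog Dynlrb1, which is broadly expressed, was 2.30 ± 0.0447 times as abundant (SD, n = 2). Tmem212, a membrane protein used as a marker of ciliated cells, had 52.7 TPM in pup 1 and 49.0 TPM in pup 3. Without Tppp3 the other 41 genes summed to 445 TPM in pup 1 and 499 TPM in pup 3, with the lower sum in pup 1. Tppp3, Tmem212 and Rsph9 were the genes with the higher TPM in pup 1, and the other 39 were lower in it.

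Dynein arm genes of the set, of which 11 encode heavy chains, were its lowest structural group. The group's median was 1.03 ± 0.22 TPM over 12 genes, and 5 of the 12 reached TPM 1 in both pups. This does not extend to arm genes in general. Over 23 arm subunits and assembly factors outside the set the median was 3.08 ± 0.73 TPM, with 6 under TPM 1 in both pups. On the mean log2(TPM + 1) scale the 12 genes lay 2.44 ± 0.07 below the radial spoke head genes, a ratio of 5.44 on that scale. Among outer arm heavy chains, the motors known from human airway cilia to differ in their place along the axoneme, Dnah5 (along its length) had 0.92 TPM in pup 1 and 1.22 TPM in pup 3. Dnah9 (distal) had 1.60 TPM in pup 1 and 1.66 TPM in pup 3. Dnah11 (proximal) had 0.45 TPM in pup 1 and 1.16 TPM in pup 3, the widest relative gap of the 3.

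Among the 12 arm genes, the inner arms held the highest and the lowest levels. Dnali1, the inner arm light chain, had 6.11 TPM in pup 1 and 9.67 TPM in pup 3. Dnah12 was the highest heavy chain with 2.53 TPM in pup 1 and 3.54 TPM in pup 3. Both were higher in pup 3, and Dnali1 exceeded Dnah12 by 2.57 ± 0.22 times. Dnah2 and Dnah10, the heavy chains of the two-headed inner arm, were lower, Dnah2 at 0.61 TPM in pup 1 and 1.27 TPM in pup 3 and Dnah10 at 0.52 TPM in pup 1 and 0.54 TPM in pup 3. Dnah6 had 0.84 TPM in pup 1 and 0.93 TPM in pup 3, Dnah3 had 0.43 TPM in pup 1 and 0.45 TPM in pup 3, and Dnah1 had 0.23 TPM in pup 1 and 0.29 TPM in pup 3. Low TPM did not mean few reads here, since the heavy chain transcripts are long. Dnah5 rested on 461 counts in pup 1 and 522 in pup 3, and the 12 arm genes held 8.03% of the set's counts in pup 1 and 9.75% in pup 3, but 1.60% of its TPM in pup 1 and 2.24% in pup 3.

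Deposited heavy chain levels depended on which transcripts carried the counts. Dnah7a had 1.63 TPM in pup 1 and 2.68 TPM in pup 3, yet a 732-base non-coding transcript held 95.5% of that in pup 1 and 95.9% in pup 3. That short transcript had 31.8 counts in pup 1 and 44.7 in pup 3, about as many as the 12245-base coding transcript, which had 28.7 in pup 1 and 36.7 in pup 3. When each gene's counts were instead divided by its longest coding transcript, an alternative chosen after the data were seen, 1 of the 11 heavy chains reached TPM 1 in both pups, against 4 by the deposited TPM. Dnah7a then had 0.154 TPM in pup 1 and 0.244 TPM in pup 3, and Dnah9 had 0.511 TPM in pup 1 and 0.605 TPM in pup 3. Dnah11 had 0.359 TPM in pup 1 and 0.474 TPM in pup 3, so the wide gap between the pups in its deposited TPM was not there in its counts, which were 162 in pup 1 and 182 in pup 3. A retained-intron transcript held 0% of the Dnah11 TPM in pup 1 and 49.97% in pup 3, there on 9.82 counts. On this scale Dnah5 was 2.57 ± 0.0142 times Dnah11 and 1.91 ± 0.157 times Dnah9. Dnah12 stayed highest, though its longest listed coding transcript has 7005 bases and those of the other heavy chains 12245 or more. In GENCODE M21 that Dnah12 transcript has 12009 bases, so its level here is on a shorter length, and its level over 12009 bases was not computed.

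**Figure D2:**
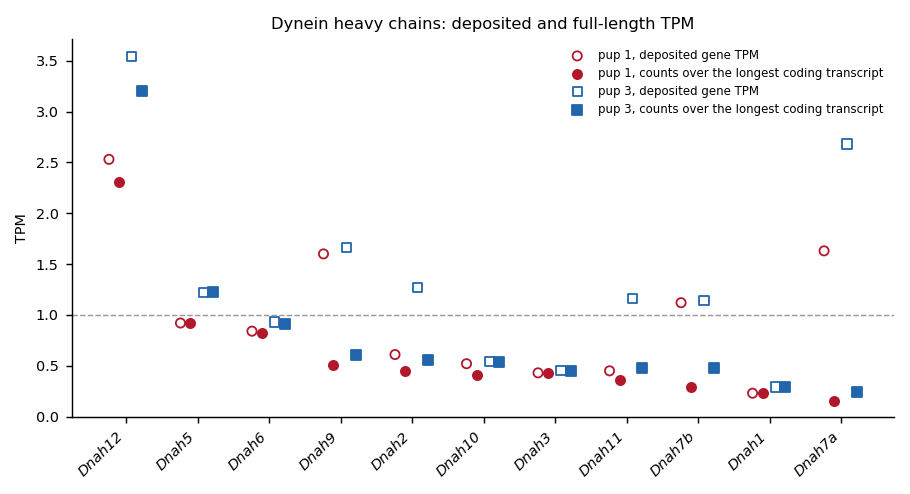
TPM of the 11 dynein heavy chain genes in pup 1 (red circles) and pup 3 (blue squares), as deposited (open) and as counts over the longest coding transcript (filled), with a dashed line at TPM 1. Open and filled symbols lie far apart for Dnah7a, Dnah9 and Dnah7b in both pups and for Dnah2 and Dnah11 in pup 3. They lie together for Dnah5, Dnah1 and Dnah3, which have 1 listed transcript each.

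Counts of Dnah7a and Dnah7b are uncertain for a further reason. Both lie on chromosome 1 with a further copy, Dnah7c, and their coding sequences are 96.96% identical (Dnah7a and Dnah7b), 96.84% (Dnah7a and Dnah7c) and 97.27% (Dnah7b and Dnah7c). Of all 100-base windows of the longest coding transcript, 20.0% of those of Dnah7a and 23.5% of those of Dnah7b occur in a transcript of another gene. The same 90 bases of coding sequence are printed here, from GENCODE M21 transcripts, because no ungapped stretch of this length held more differences by which a read can be placed. Capitals mark the 20 positions that are not the same in all 3 genes, counted from base 1219 of the coding sequence for Dnah7a and Dnah7c and from base 1351 for Dnah7b.

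Dnah7a: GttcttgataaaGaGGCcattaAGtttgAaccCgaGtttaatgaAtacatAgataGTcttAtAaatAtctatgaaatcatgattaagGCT
Dnah7b: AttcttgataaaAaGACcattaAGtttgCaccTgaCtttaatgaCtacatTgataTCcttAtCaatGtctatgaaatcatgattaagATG
Dnah7c: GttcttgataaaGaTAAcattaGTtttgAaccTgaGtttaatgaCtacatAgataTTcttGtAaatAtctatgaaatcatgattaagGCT

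Dnah7b had 1.12 TPM in pup 1 and 1.14 TPM in pup 3, and Dnah7c, which is not in the set, had 0.20 TPM in pup 1 and 0.36 TPM in pup 3. In Dnah7b a 740-base transcript annotated for nonsense-mediated decay held 56.5% of the TPM in pup 1 and 51.9% in pup 3.

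Radial spoke head genes and tektins were detected throughout. Rsph9 had 28.5 TPM in pup 1 and 28.1 TPM in pup 3, and Rsph1 had 19.2 TPM in pup 1 and 22.7 TPM in pup 3. Rsph4a, another protein of the same spoke head, had 1.83 TPM in pup 1 and 2.32 TPM in pup 3. Rsph1 was 10.1 ± 0.489 times as abundant as Rsph4a, although products of both are parts of 1 structure. The tektins, filament proteins inside the doublet wall, lay close together. Tekt1 had 12.5 TPM in pup 1 and 15.3 TPM in pup 3, Tekt2 had 12.8 TPM in pup 1 and 13.9 TPM in pup 3, and Tekt4 had 8.97 TPM in pup 1 and 10.1 TPM in pup 3. Tekt2 exceeded Tekt4 by 1.40 ± 0.0369 times, while Tekt1 and Tekt2 changed places between the pups. Of the other tektins, Tekt5 was near this range (8.69 TPM in pup 1 and 10.4 TPM in pup 3) and Tekt3 was under 1 (0.70 TPM in pup 1 and 0.49 TPM in pup 3).

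Central pair genes covered a wide range of levels. Spag6l, the mouse central pair gene on chromosome 16, had 11.4 TPM in pup 1 and 12.4 TPM in pup 3. Its paralog Spag6 was at 0.07 TPM in pup 1 and 0.13 TPM in pup 3, on 5 counts in pup 1 and 6.27 in pup 3. Spag16 had 2.84 TPM in pup 1 and 3.37 TPM in pup 3. Ak7, an adenylate kinase, had 2.74 TPM in pup 1 and 4.31 TPM in pup 3. Hydin, a very large central pair protein, had 0.51 TPM in pup 1 and 0.64 TPM in pup 3, on 256 counts in pup 1 and 277 in pup 3 over a 15783-base transcript. Spag17 had 5.12 TPM in pup 1 and 8.81 TPM in pup 3, but a 651-base non-coding transcript held 59.5% of that in pup 1 and 60.7% in pup 3, on 54.3 counts in pup 1 and 81.0 in pup 3. Counted over its 7862-base coding transcript, Spag17 had 1.53 TPM in pup 1 and 2.33 TPM in pup 3.

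The nexin-dynein regulatory complex gene Drc1 and the ruler genes Ccdc39 and Ccdc40, which set the axial repeat of the doublet, formed an even group. Drc1 had 5.37 TPM in pup 1 and 7.44 TPM in pup 3. Ccdc39 had 4.02 TPM in pup 1 and 6.88 TPM in pup 3. Ccdc40 had 7.27 TPM in pup 1 and 10.1 TPM in pup 3. All 3 were lower in pup 1, and in each the deposited intervals of the pups were apart. Ccdc39 shares 24.8% of its 100-base windows with Ttc14 on the opposite strand (6.27 TPM in pup 1 and 8.48 TPM in pup 3), and whether counting used strand is not given in the sources used here. A non-coding transcript, Ccdc40-204, held 47.4% of the Ccdc40 TPM in pup 1 and 41.8% in pup 3.

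Among the other ciliary proteins, Cfap126, a protein of the basal body region also known as Flattop, had 28.4 TPM in pup 1 and 29.6 TPM in pup 3. Ccdc153 had 27.0 TPM in pup 1 and 29.7 TPM in pup 3. Ccdc113 had 11.7 TPM in pup 1 and 16.2 TPM in pup 3. Sntn, sentan, a protein of the tip of airway cilia, had 10.2 TPM in pup 1 and 15.4 TPM in pup 3, with no overlap of the deposited intervals. Cfap52, a protein inside the doublet microtubules, had 8.66 TPM in pup 1 and 10.98 TPM in pup 3. Lrrc6, which acts in the cytoplasm in the assembly of dynein arms, had 4.11 TPM in pup 1 and 5.45 TPM in pup 3. TPM was the lower in pup 1 in all 6 of these. By counts scaled for library size Cfap126 was not lower (log2 ratio, pup 1 over pup 3, 0.05).

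The deposited level of Cfap43 was mostly that of a neighbour. Its row gave 18.4 TPM in pup 1 and 20.1 TPM in pup 3, which would place it among the 10 highest genes of the set. Of this, 74.7% in pup 1 and 68.6% in pup 3 belonged to 1 transcript that GENCODE M21 assigns to a different gene, Itprip (chromosome 19, 47894602 to 47919299), on the same strand and beyond the 5′ end of Cfap43 at 47837382. Without that transcript Cfap43 had 4.66 TPM in pup 1 and 6.31 TPM in pup 3, on 448 counts in pup 1 and 459 in pup 3. This is close to Cfap44, its partner in the tether of an inner dynein arm as known from Tetrahymena, which had 4.15 TPM in pup 1 and 5.96 TPM in pup 3. Cfap43 was the only gene of the 42 with such a transcript, and the only one of 239 genes on all lists used here. Among all genes measured, which include 43346 mouse genes, 484 had such a transcript. In Cfap44 in turn a 593-base transcript without a stop codon held 61.3% of the TPM in pup 1 and 52.0% in pup 3.

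Several transcripts were listed for 23 of the 42 genes. In 19 of these the leading transcript was the same in both pups. Averaged over the pups, the leader held over 50% of the gene's TPM in 17 of the 23. The leader was not protein-coding in 5 genes (Dnah11, Dnah7a, Dnah7b, Spag17 and Cfap44), and protein-coding transcripts held under 50% of the TPM in 7. In counts the picture differed: protein-coding transcripts held 81.8% of the Spag17 counts in pup 1 and 78.5% in pup 3, against 24.4% of its TPM in pup 1 and 20.8% in pup 3. For Cfap44 they held 86.9% of the counts in pup 1 and 86.6% in pup 3, against 35.9% of the TPM in pup 1 and 37.1% in pup 3. In each of the 5 genes the non-coding leader was shorter than the longest coding transcript, and TPM divides counts by length.

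**Figure D3:**
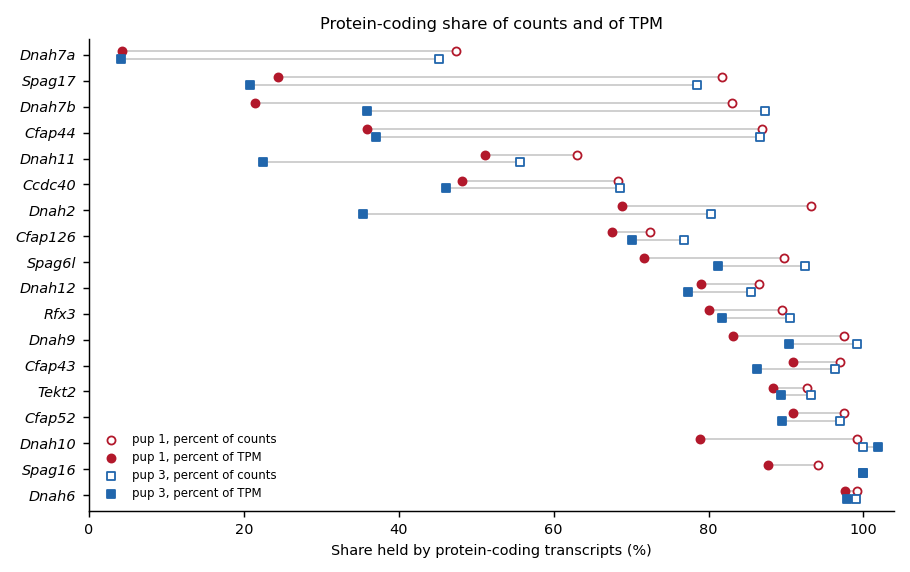
Percent of each gene's counts (open) and TPM (filled) held by protein-coding transcripts, in pup 1 (red circles) and pup 3 (blue squares), for the 18 genes in which it was not all. For Dnah7a, Spag17, Dnah7b and Cfap44 the share of TPM is far below the share of counts, values just over 100% come from rounding in the deposited TPM, and the Cfap43 values include Itprip-201.

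Regulators were present at low levels. Ccno, which acts in the amplification of centrioles, had 5.09 TPM in pup 1 and 5.45 TPM in pup 3. Mcidas, which encodes multicilin and lies beside Ccno on chromosome 13, had 0.99 TPM in pup 1 and 1.36 TPM in pup 3. Ccno exceeded Mcidas by 4.57 ± 0.802 times. Gmnc, which encodes GEMC1 and acts upstream of multicilin, was the lowest gene of the set at 0.07 TPM in pup 1 and 0.19 TPM in pup 3, on 9 counts in pup 1 and 21 in pup 3. Both counts are above the limit of 3 that a count of 0 allows. The X-box factor Rfx2 had 4.68 TPM in pup 1 and 5.20 TPM in pup 3, and Rfx3 had 3.47 TPM in pup 1 and 4.70 TPM in pup 3. Foxj1, outside the set, stood well above these at 35.1 TPM in pup 1 and 39.7 TPM in pup 3, or 32.3 ± 4.42 times Mcidas.

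Other genes of the same complexes had levels of a similar range, with 57 of 70 at TPM 1 in both pups. Of 23 further dynein arm subunits and assembly factors 17 were detected, led by Dnal4 (45.2 TPM in pup 1 and 42.4 TPM in pup 3), Ccdc114 (9.38 TPM in pup 1 and 11.7 TPM in pup 3) and Zmynd10 (7.98 TPM in pup 1 and 9.43 TPM in pup 3). Of 13 further radial spoke genes 11 were detected, led by Rsph3b (37.1 TPM in pup 1 and 42.3 TPM in pup 3), Nme5 (30.0 TPM in pup 1 and 38.3 TPM in pup 3) and Rsph3a (24.6 TPM in pup 1 and 25.6 TPM in pup 3). The last of these has a close copy in Rsph3b, so their split is uncertain. Of 8 further nexin-dynein genes 7 were detected, with Gas8 highest (17.2 TPM in pup 1 and 19.0 TPM in pup 3), and of 11 further central pair genes 10 were, with Stk36 highest (10.99 TPM in pup 1 and 14.3 TPM in pup 3). Of 15 further proteins of the doublet interior 12 were detected, with Cfap20 highest (114 TPM in pup 1 and 105 TPM in pup 3). Of 17 further regulators 13 were detected, led by Foxj1, E2f4 and Gmnn.

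Set against other lists within each library, the 42 genes lay 0.98 ± 0.03 below the list for intraflagellar transport and the primary cilium in mean log2(TPM + 1), or -0.39 with detected genes only. That list, led by Ift20 (190 TPM in pup 1 and 196 TPM in pup 3), had 41 of 42 genes detected. Against airway secretory markers the difference was 4.30 ± 0.03 below. Scgb1a1, the club cell secretoglobin, alone was 21.5 ± 0.342 times the sum of the 42 genes. Against the other genes of the same complexes the set lay 0.41 ± 0.04 above (0.62 with detected genes only). Its regulators lay 1.18 ± 0.04 below its structural genes (-0.51 by medians). Tektins and radial spoke genes differed by 0.06 ± 0.02 in the mean (0.16 with a pseudocount of 0.1, 0.012 with protein-coding transcripts only), with the sign turned round when medians were used (-0.62). With 2 pups, an exact 2-sided sign-flip test cannot go below 0.5, so no p is given for these differences.

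**Figure D4:**
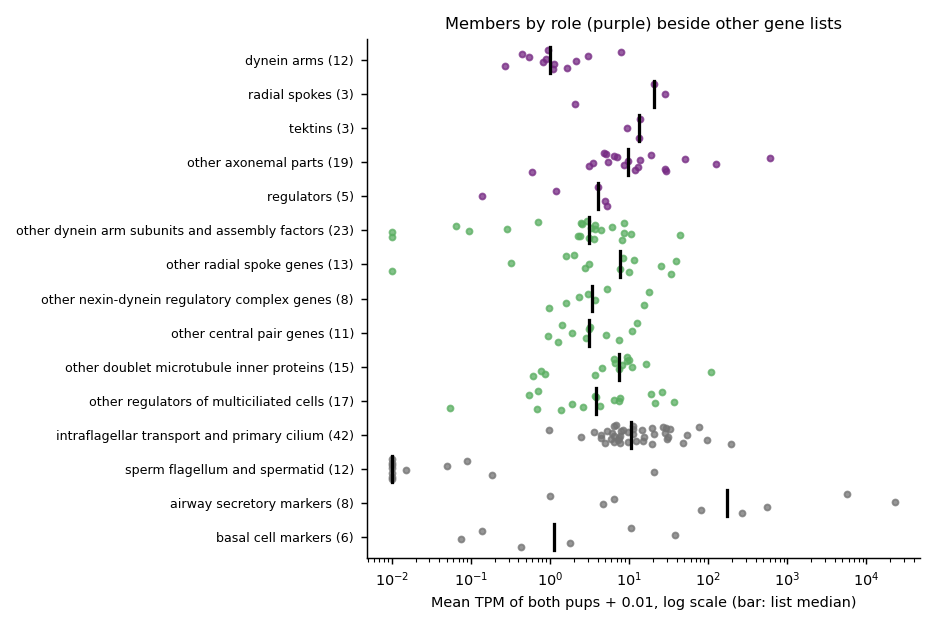
Mean TPM of both pups plus 0.01 (log axis) for each gene of the set by role (purple), of other genes of the same complexes and regulators (green) and of other lists (grey), with the number of genes in parentheses and a black bar at each median. The set's dynein arm genes, mostly heavy chains, lie lowest of its structural groups, and most sperm genes lie at 0.

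Between the pups, no gene of the set met the rule of size, which asks for a 2-fold ratio of TMM-scaled counts, at least 50 counts over both libraries and a 95% counting interval that leaves out 1. The count was 0 of 41 genes tested, with Gmnc left out by the count filter, and 1.4% of all 15790 genes tested met the rule. With 1 library a side there is no replicate check, and counting intervals cover counting error only. Smaller differences went mostly one way. The ratio was below 1 in pup 1 for 33 of the 41 genes (all genes tested, 49%), with a median log2 ratio of -0.26 (all genes tested, 0.01). Of the other genes of the same complexes, 50 of 65 tested were also below 1 (76.9%, median log2 ratio -0.16). In the primary cilium list 31 of 42 were (73.8%, median -0.13), so the lean was not particular to the set. The counting interval left out 1 with pup 1 lower in 23 of the 41 (all genes tested, 21.6%) and with pup 1 higher in 2, Tppp3 (log2 ratio 0.12) and Tmem212 (0.19). Deposited TPM intervals of the pups were apart in 13 of the 41 (all genes tested, 26.8%), with pup 1 lower in all 13 (all genes tested, 18.8%).

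The largest of these differences was that of Ccdc39, with 457 counts in pup 1 and 665 in pup 3, a scaled ratio of 0.620 (95% interval 0.549 to 0.700). Dnah7b followed with 115 counts in pup 1 and 159 in pup 3 (ratio 0.653, 0.509 to 0.835). Dnah7a had 60 counts in pup 1 and 81 in pup 3 (ratio 0.668, 0.471 to 0.945). Dnali1 had 401 counts in pup 1 and 540 in pup 3 (ratio 0.670, 0.587 to 0.764), Ak7 had 265 in pup 1 and 354 in pup 3 (ratio 0.676, 0.574 to 0.794), Spag17 had 383 in pup 1 and 497 in pup 3 (ratio 0.695, 0.607 to 0.796), and Sntn had 376 in pup 1 and 483 in pup 3 (ratio 0.703, 0.612 to 0.806). These genes belong to different roles: ruler, inner arm, central pair and cilium tip. Cfap43 stood at a log2 ratio of 0.02 by its deposited row and -0.18 without Itprip-201. Of the 11 heavy chains, 10 had a ratio below 1, and Dnah3 was at a log2 ratio of 0.01.

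Ratios between the pups also moved with transcript length, for all genes. Over all genes tested, the median log2 ratio was 0.14 for coding transcripts up to 1000 bases and -0.12 for those over 8000 bases. The genes of the set had medians of 0.10 in the shortest class (3 genes), -0.07 over 1000 and up to 2000 bases (10 genes), -0.32 up to 4000 (11 genes), -0.39 up to 8000 (5 genes) and -0.28 above that (12 genes). Relative to all genes of the same length class the median of the set was -0.20, and 36 of 41 genes lay below their class. For the primary cilium list this median was -0.12, with 33 of 41 below. The part of length in the difference between the pups was not tested further.

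**Figure D5:**
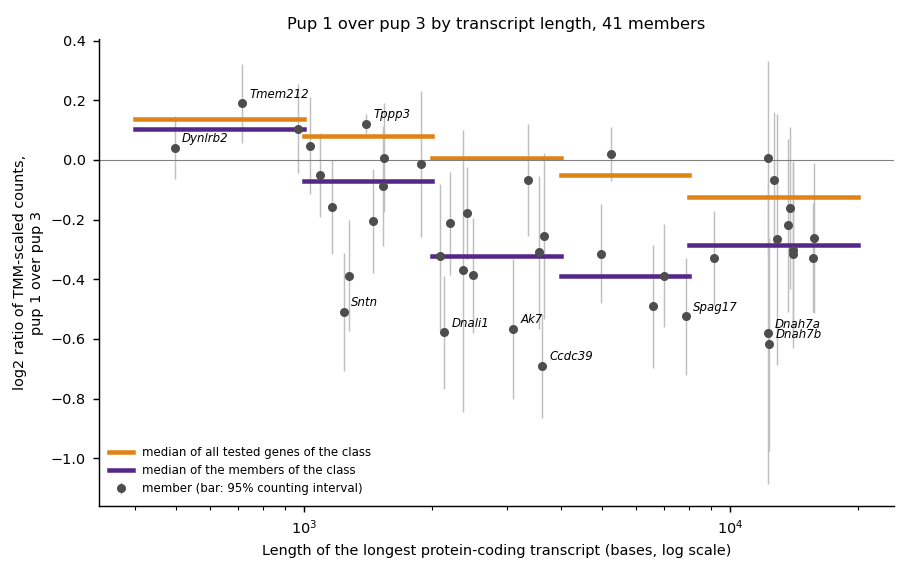
Log2 ratio of TMM-scaled counts, pup 1 over pup 3, against the length of the longest coding transcript (log axis) for 41 genes, with 95% counting intervals as grey bars. Orange lines give the median of all genes tested in each length class and purple lines the median of the set, which lies below the orange line in every class.

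The scale itself was uncertain. Spike-in counts were few (317 in pup 1 and 316 in pup 3), and scaling by them moved the median log2 ratio of all genes tested to 0.15. That of the set moved to -0.12, with 28 of its 41 genes below 0. Of all genes tested, fewer lay below 0 than above it on this scale, as their median shows, and their exact share is not given here. The median log2 ratio also varied among markers of other cells. Values were 0.11 for 8 alveolar type 2 markers (sum 86045 TPM in pup 1 and 77273 TPM in pup 3), -0.05 for 8 alveolar type 1 markers, 0.07 for the 6 tested of 8 neuroendocrine markers, -0.10 for 8 airway secretory markers and -0.44 for the 4 tested of 6 basal cell markers. Cardiac muscle markers had a median of -0.22 (sum 708 TPM in pup 1 and 811 TPM in pup 3). Their part in the lower cilium values of pup 1 was not tested.

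Length and level went together in the set. TPM divides counts by length, so length enters both measures, here and in the coding genes set beside them. Across the 42 genes Pearson's r between log10 length and log10 mean TPM was -0.783 and Spearman's rho -0.852. Across the 32 detected genes of the set they were -0.745 and -0.827, against -0.300 and -0.277 across 12942 detected protein-coding genes. Genes are not independent replicates. The short-transcript genes Tppp3, Dynlrb2 and Tmem212 alone held 74.8% of the TPM of the set in pup 1 and 70.8% in pup 3. Exons of 11 of the 42 genes overlap those of another gene, on the opposite strand in 10, and in 4 (Dnah3, Tekt2, Spag17 and Ccdc39) the overlaps cover over 10% of the exon bases.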

How the data were processed

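The authors deposited, per the file headers, expected counts, TPM, FPKM, posterior mean values, intervals of TPM and an isoform percent for each gene or transcript, 1 library per pup. The deposited text files name assembly mm10 and annotation M4. Not given in the sources used here are the aligner, the counting program, its use of strand and the level of the TPM intervals, which lie around the posterior mean and not the TPM. Of 69691 features, 43346 are mouse genes, and 42462 matched GENCODE M21 (GRCm38), the source of names, coordinates and transcript types. Depth was 42189536 expected counts over genes for pup 1 and 37026165 for pup 3, so a count of 0 allows up to 3 counts, or 0.0711 CPM in pup 1 and 0.0810 CPM for pup 3. In the 22276 genes over 200 bases with 1 transcript, effective length lay within 1 base of length less 99. After rounding, TMM factors (edgeR 4.0.16 in R 4.3.3) set the size of pup 1 to 1.11 times that of pup 3, with a prior count of 0.5 in log2 ratios and exact conditional binomial 95% intervals. DESeq2 1.42.0 size factors were an alternative. Every gene of the set is named, with the 3 highest of each other list or fewer. Genes and lists were chosen with earlier results of these data known. Promoters came from RefSeq (GRCm38.p6).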

Additional observations from a re-analysis of the deposited data

How the results depend on the processing

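The number of genes at TPM 1 in both pups was 32 and stayed between 28 and 41 over 7 other definitions of detection and level, and between 32 and 36 when a pup was left out. The summed level was 1043 TPM from protein-coding transcripts, 843 TPM on the longest coding transcript and 472 TPM without Tppp3, and 1059 to 1098 TPM with 1 pup left out. The median was 4.42 to 5.71 TPM with 1 pup left out. Differences between lists in mean log2(TPM + 1) kept their sign under every alternative run except 1. With a pseudocount of 0.1 they were -1.29 against the primary cilium list, -4.59 against secretory markers, -3.14 for dynein arms against radial spokes, 0.16 for tektins against radial spokes, -1.53 for regulators against structural genes and 0.53 against the other genes of the complexes. With detected genes only they were -0.39, -4.52, -1.80, unmoved, -1.04 and 0.62 in the same order. With medians they were -0.89, -4.61, -3.43, -0.62 (sign turned), -0.51 and 0.35. With protein-coding transcripts only they were -0.94, -4.51, -2.74, 0.012, -0.99 and 0.34. Posterior mean TPM gave -4.26 against secretory markers, and the longest coding transcript -2.74 for dynein arms. With 1 pup left out these differences spanned -1.001 to -0.95, -4.32 to -4.28, -2.49 to -2.39, 0.05 to 0.08, -1.21 to -1.15 and 0.38 to 0.44. The causes were not tested. The number of genes of the set that differed between the pups was 1 (Gmnc, 9 counts in pup 1 and 21 in pup 3) with at least 10 counts or no filter, and 2 (Ccdc39 and Dnah7b) at 1.5-fold. Over all genes 221 differed, 590 with at least 10 counts, 701 with no filter, 799 at 1.5-fold and 85 by deposited TPM + 1. The median log2 ratio of the set lay between -0.30 and -0.12 over all alternatives. Alternatives on the longest coding transcript, without Tppp3, without Itprip-201 and by length class were chosen after the data were seen. No paired analysis was possible because the pups form 1 group. Depth limits Gmnc, Mcidas, Dnah1 and Dnah7a, none with more than 102 counts in either pup.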
